A study of Mus musculus with 4 samples.

Results

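The 10 genes described here encode amino acid transporters, or obligate partner subunits of such transporters, and most of them serve the proximal tubule of the kidney. They were chosen by symbol from the 32285 genes listed for each section, and the set is Slc6a19, Slc6a18, Slc3a1, Slc7a9, Slc7a7, Slc7a8, Slc7a13, Slc1a1, Slc3a2 and Slc7a5. Their RNA was measured in 4 Visium sections of left kidneys from male WT C57BL/6J mice aged 7 to 8 weeks. Both normal sections came from untreated controls (Normal ctrl). Both ischemic sections came from mice whose renal pedicles were clamped on either side for 30 min, with the kidneys taken 24 h later (Ischemic reperfusion injury). The sections were 10 µm thick, each condition had 2 sections, and all lay on 1 slide. In Visium, poly(A) RNA of a section is caught by barcoded spots beneath it, molecules are counted by unique molecular identifiers (UMIs), and each spot can hold several cells.

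The proximal tubule reclaims nearly all filtered amino acids. Transporters on its luminal brush border take amino acids up with sodium or by exchange, and transporters on the basolateral side release them toward the blood. Several are pairs of a light chain that carries the substrate and a heavy chain that brings it to the membrane. The heavy chain Slc3a1 (rBAT) serves luminal light chains, while the heavy chain Slc3a2 (CD98) serves basolateral ones and is also used by most other cells. The outer stripe of the outer medulla, which holds the straight end of the proximal tubule, is known as the zone most exposed to ischemic injury.

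The sections held 44528078 and 27657481 UMIs (normal sections 1 and 2) and 31053530 and 25957128 UMIs (ischemic sections 1 and 2) over 10312 tissue spots. Spots were assigned to cortex, outer stripe, inner stripe, inner medulla or pelvis from the marker counts of the spot and up to 6 neighbours, without the use of any of the 10 genes. Boundary spots, whose 2 highest zone marker scores lay within 0.25 SD of each other wherever they were, made up 14.8% to 18.9% of a section. Zones were drawn in each section on its own, and their sizes differed between conditions. The outer stripe held 30.9% and 30.4% of normal spots and 24.8% and 24.5% of ischemic ones, and the cortex was smaller too. Shares of the inner stripe were 13.8% and 12.5% against 17.5% and 21.3%, and of the inner medulla 5.16% and 8.32% against 12.1% and 11.1%. The part of zone size in the changes by zone was not tested. The zones are mixtures, and the outer stripe markers summed to 2348 and 2235 CPM (UMI counts scaled to the same total in every sum) in the normal outer stripe but also to 1889 and 940 CPM in the normal inner stripe. The inner medulla markers, in turn, summed to 943 and 957 CPM in the normal and 6564 and 6620 CPM in the ischemic outer stripe. In the zone assigned as inner medulla they summed to 9341 and 10660 CPM in normal but only 4044 and 4140 CPM in ischemic sections, below the ischemic outer stripe, so the markers do not bear out that zone's name after ischemia. The injury genes Havcr1 and Lcn2 followed the labels, at 0.966 and 2.13 CPM against 1408 and 1413 CPM for Havcr1 and at 4.92 and 7.95 CPM against 3056 and 3626 CPM for Lcn2. The labels do not name the mouse behind a section, and the study used 2 mice per condition with 2 technical replicates each. Sections of a condition may therefore share a mouse, and the p-values measure the spread between sections.

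Values are given as plain CPM of the summed counts of a section or zone. Changes are log2 fold changes that edgeR's quasi-likelihood model gave for the same sums after TMM normalization, with Benjamini-Hochberg adjustment over all genes tested and a threshold of 0.05. The TMM factors rose from 0.829 and 0.999 in the normal to 1.09 and 1.10 in the ischemic sections, so fitted changes lie below those read from plain CPM. With library size alone as the scale, the median log2 fold change of all genes moved from 0.04 to 0.31, and 67% instead of 51.1% of the called genes were higher in ischemic sections. UMIs are counted near the 3′ ends of transcripts and are not divided by gene length. In a spot, fewer cells of a type and less RNA per cell cannot be told apart.

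In whole sections, 7 of the 10 genes fell with ischemia, 2 rose and 1 did not pass the threshold, against 29.7% of all 15305 genes tested that fell and 31.0% that rose. The genes that fell were Slc6a19, Slc3a1, Slc7a9, Slc7a7, Slc7a8, Slc7a13 and Slc1a1. The genes that rose were the heavy chain Slc3a2 and its light chain Slc7a5. The median log2 fold change was -1.17 for the 10 genes and 0.04 for all genes tested.

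**Figure D1:**
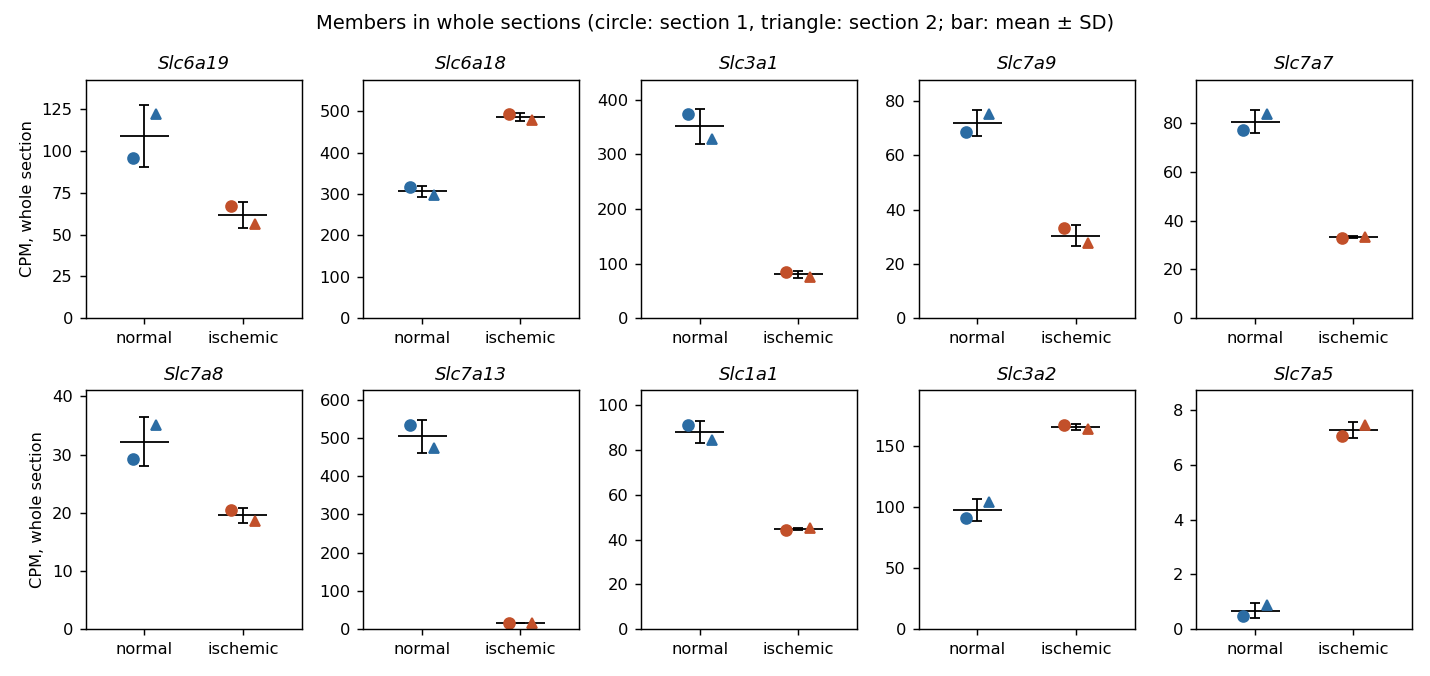
Points are the CPM of each of the 10 genes in whole sections, 2 normal and 2 ischemic, with horizontal lines for the mean and error bars for the SD. Each axis starts at 0. Slc7a13 lay between 473 and 536 CPM in normal and between 14.9 and 15.9 CPM in ischemic sections.

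Among luminal carriers, Slc6a19 and Slc6a18 transport neutral amino acids with sodium. They are neighbours on chromosome 13 of GRCm38, Slc6a18 (ENSMUSG00000021612) from 73661752 to 73678023 and Slc6a19 (ENSMUSG00000021565) from 73679745 to 73704865, both on the minus strand. Slc6a19, the main luminal carrier of neutral amino acids, whose loss causes Hartnup disorder, had 95.7 and 122 CPM in the normal and 67.3 and 56.2 CPM in the ischemic sections. Both ischemic values lay below both normal ones, with a log2 fold change of -1.08 (SE 0.12, edgeR adjusted p = 6.88e-05). Slc6a18, a relative with a preference for glycine and alanine, had 316 and 298 CPM in the normal and 494 and 480 CPM in the ischemic sections. Both ischemic values were the higher ones, but the log2 fold change of 0.38 (SE 0.15) missed the threshold (edgeR adjusted p = 0.0544).

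The call for Slc6a18 in whole sections was made in 4 of the 11 fits tried. With library size alone its log2 fold change was 0.67 (edgeR adjusted p = 7.31e-05), and without normal section 1 it was 0.58 (edgeR adjusted p = 7.15e-10). Over the 11 fits, the value ranged from 0.19 to 0.67 and the adjusted p of edgeR and DESeq2 from 7.15e-10 to 0.354.

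The cystine and dibasic amino acid system of the brush border pairs the heavy chain Slc3a1 with the light chain Slc7a9, and mutations of either cause cystinuria. Slc3a1 (ENSMUSG00000024131, chromosome 17 from 85028376 to 85064236, plus strand) had 374 and 328 CPM in the normal and 84.4 and 75.9 CPM in the ischemic sections. It fell by 2.42 on the log2 scale (SE 0.17, edgeR adjusted p = 4.34e-06). Slc7a9 (ENSMUSG00000030492, chromosome 7 from 35448796 to 35466036, plus strand) had 68.6 and 75.4 CPM in the normal and 33.2 and 27.8 CPM in the ischemic sections. It fell by 1.51 (SE 0.12, edgeR adjusted p = 7.1e-06).

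The other light chain that joins Slc3a1, Slc7a13 (ENSMUSG00000041052, chromosome 4 from 19818725 to 19842218, plus strand), carries aspartate, glutamate and cystine in the straight proximal tubule. Slc7a13 had 536 and 473 CPM in the normal sections and 14.9 and 15.9 CPM in the ischemic sections. It fell by 5.32 on the log2 scale (SE 0.20, edgeR adjusted p = 1.5e-07), more than any other of the 10 genes, and passed the threshold in all 11 fits tried, between -5.56 and -5.04. Slc1a1 (ENSMUSG00000024935, chromosome 19 from 28835049 to 28913960, plus strand), the luminal glutamate and aspartate carrier, had 91.5 and 84.6 CPM in the normal and 44.4 and 45.0 CPM in the ischemic sections. It fell by 1.26 (SE 0.13, edgeR adjusted p = 4.8e-05).

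On the basolateral side, Slc7a7 (ENSMUSG00000000958, chromosome 14 from 54369442 to 54417780, minus strand) exports dibasic amino acids, and its loss causes lysinuric protein intolerance. It had 77.1 and 83.7 CPM in the normal and 32.9 and 33.4 CPM in the ischemic sections and fell by 1.55 on the log2 scale (SE 0.10, edgeR adjusted p = 2.68e-06). Slc7a8 (ENSMUSG00000022180, chromosome 14 from 54722209 to 54781946, minus strand) exchanges neutral amino acids. It had 29.3 and 35.2 CPM in the normal and 20.5 and 18.6 CPM in the ischemic sections and fell by 0.99 (SE 0.10, edgeR adjusted p = 2.92e-05). Both light chains depend on the heavy chain Slc3a2, which rose.

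Slc3a2 (ENSMUSG00000010095, chromosome 19 from 8706882 to 8723369, minus strand) had 91.1 and 104 CPM in the normal and 167 and 163 CPM in the ischemic sections. It rose by a log2 fold change of 0.49 (SE 0.11, edgeR adjusted p = 0.00384), a call that was lost without ischemic section 1 (0.48, edgeR adjusted p = 0.0984) or without ischemic section 2 (0.53, edgeR adjusted p = 0.0734). Slc7a5 (ENSMUSG00000040010, chromosome 8 from 121881150 to 121907694, minus strand), the light chain that imports large neutral amino acids into growing and stressed cells, had 0.472 and 0.868 CPM in the normal sections, from 21 and 24 counts. It had 7.05 and 7.47 CPM in the ischemic sections, from 219 and 194 counts. It rose by a log2 fold change of 3.22 (SE 0.24, edgeR adjusted p = 5.83e-06) and passed the threshold in all 11 fits tried.

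Exons of Slc3a1, Slc7a7 and Slc1a1 overlap those of Prepl, Oxa1l and 4430402I18Rik on the opposite strand. The sources used here do not say whether counting used the strand, and without it reads from such partners cannot be told apart.

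Upstream sequence is shown for 2 genes with opposite positions in the normal kidney, Slc3a1, which was higher in the outer stripe, and Slc6a19, which was higher in the cortex. Each stretch holds the 250 bases before the start site that RefSeq gives on GRCm38.p6, Slc3a1 at chr17:85028097-85028346 on the plus strand and Slc6a19 at chr13:73692637-73692886 on the minus strand. The RefSeq start of Slc6a19 lies within the gene as GENCODE gives it (73679745 to 73704865), downstream of the GENCODE start, so its stretch is upstream of the RefSeq start only. Capitals mark TATAAA or CCAAT on either strand, with positions counted back from the start site.
Slc3a1: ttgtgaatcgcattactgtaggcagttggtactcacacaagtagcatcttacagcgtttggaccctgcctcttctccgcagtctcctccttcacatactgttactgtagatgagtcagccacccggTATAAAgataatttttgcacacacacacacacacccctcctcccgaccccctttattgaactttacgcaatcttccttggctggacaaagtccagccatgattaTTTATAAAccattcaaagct
Slc6a19: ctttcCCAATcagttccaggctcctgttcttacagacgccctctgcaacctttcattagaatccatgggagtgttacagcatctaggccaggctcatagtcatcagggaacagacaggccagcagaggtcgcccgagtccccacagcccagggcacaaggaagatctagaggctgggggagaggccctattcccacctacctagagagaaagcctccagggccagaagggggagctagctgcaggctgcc
In Slc3a1, TATAAA began 124 bases before the start and again 18 bases before it, where it overlapped a match on the other strand that began 20 bases before the start. In Slc6a19, CCAAT began 245 bases before the start. Of the 32851 promoters in the table, 12.4% held TATAAA and 33.8% held CCAAT in their 250 upstream bases. The table held 12 promoters of 7 of the 10 genes, several of them of Slc7a7, and none of Slc6a18, Slc7a13 or Slc7a5. Besides Slc3a1 and Slc6a19, none of the 7 genes held either motif. GTTAAT, the half-site of the proximal tubule factor HNF1, was in 6.43% of all promoters and in 1 of the 7 genes, Slc7a7. TGATGNAA, the element bound by the stress factor ATF4, was in 3.45% of all promoters and, of the 7 genes, also in Slc7a7 alone. The shares count promoters while the hits count genes, so a gene with several promoters could be hit more easily.

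To place the 10 genes within the normal kidney, the outer stripe was compared with the cortex within sections. Of the 10 genes, 4 were higher in the outer stripe and 5 lower, against 12.6% and 10.4% of all 14359 genes tested. Slc7a5 did not pass the threshold, with only 8 and 7 counts in the normal cortex and 7 and 7 in the normal outer stripe. The genes higher in the outer stripe were Slc6a18, Slc3a1, Slc7a13 and Slc1a1, all luminal. The genes lower there were the luminal Slc6a19 and Slc7a9 and the basolateral Slc7a7, Slc7a8 and Slc3a2.

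The neighbours Slc6a19 and Slc6a18 had opposite profiles. Slc6a19 had 172 and 220.0 CPM in the normal cortex and 31.2 and 47.4 CPM in the normal outer stripe, a log2 difference of -2.19 (SE 0.10, edgeR adjusted p = 7.85e-10). Slc6a18 had 192 and 189 CPM in the normal cortex and 464 and 491 CPM in the normal outer stripe, a log2 difference of 1.48 (SE 0.20, edgeR adjusted p = 5.65e-05). Of the Slc6a19 counts, 84.1% and 80.5% came from the cortex of the normal sections, against 28.5% and 28.4% of those of Slc6a18.

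The partners of the heavy chain Slc3a1 also parted. Slc3a1 had 272 and 250 CPM in the normal cortex and 529 and 514 CPM in the outer stripe, a log2 difference of 1.15 (SE 0.20, edgeR adjusted p = 0.000538). Slc7a13 followed it, with 350 and 301 CPM in the cortex and 801 and 830 CPM in the outer stripe, a log2 difference of 1.50 (SE 0.23, edgeR adjusted p = 0.000188). Slc7a9 went the other way, with 105 and 121 CPM in the cortex and 41.3 and 44.7 CPM in the outer stripe, a log2 difference of -1.24 (SE 0.12, edgeR adjusted p = 1.09e-06). Per count of Slc7a9 there were 3.33 and 2.49 counts of Slc7a13 in the normal cortex and 19.4 and 18.6 in the normal outer stripe.

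The basolateral genes were all higher in the normal cortex. Slc7a7 had 126 and 142 CPM there and 37.1 and 38.2 CPM in the outer stripe, a log2 difference of -1.68 (SE 0.10, edgeR adjusted p = 6.01e-09). Slc7a8 had 51.1 and 60.9 CPM against 9.24 and 13.6 CPM, with -2.17 (SE 0.11, edgeR adjusted p = 2.37e-09). Slc3a2 had 137 and 152 CPM against 45.8 and 51.3 CPM, with -1.43 (SE 0.09, edgeR adjusted p = 1.44e-08). The difference of Slc1a1 was smaller (0.54, SE 0.13, edgeR adjusted p = 0.00731), with 83.6 and 83.1 CPM in the cortex and 110 and 108 CPM in the outer stripe. The call was lost under DESeq2 (0.52, adjusted p = 0.0684) and with no section block (0.54, edgeR adjusted p = 0.134). It was also lost without ischemic section 1 (0.49) or ischemic section 2 (0.51), which take part in the shared estimate of the spread.

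**Figure D2:**
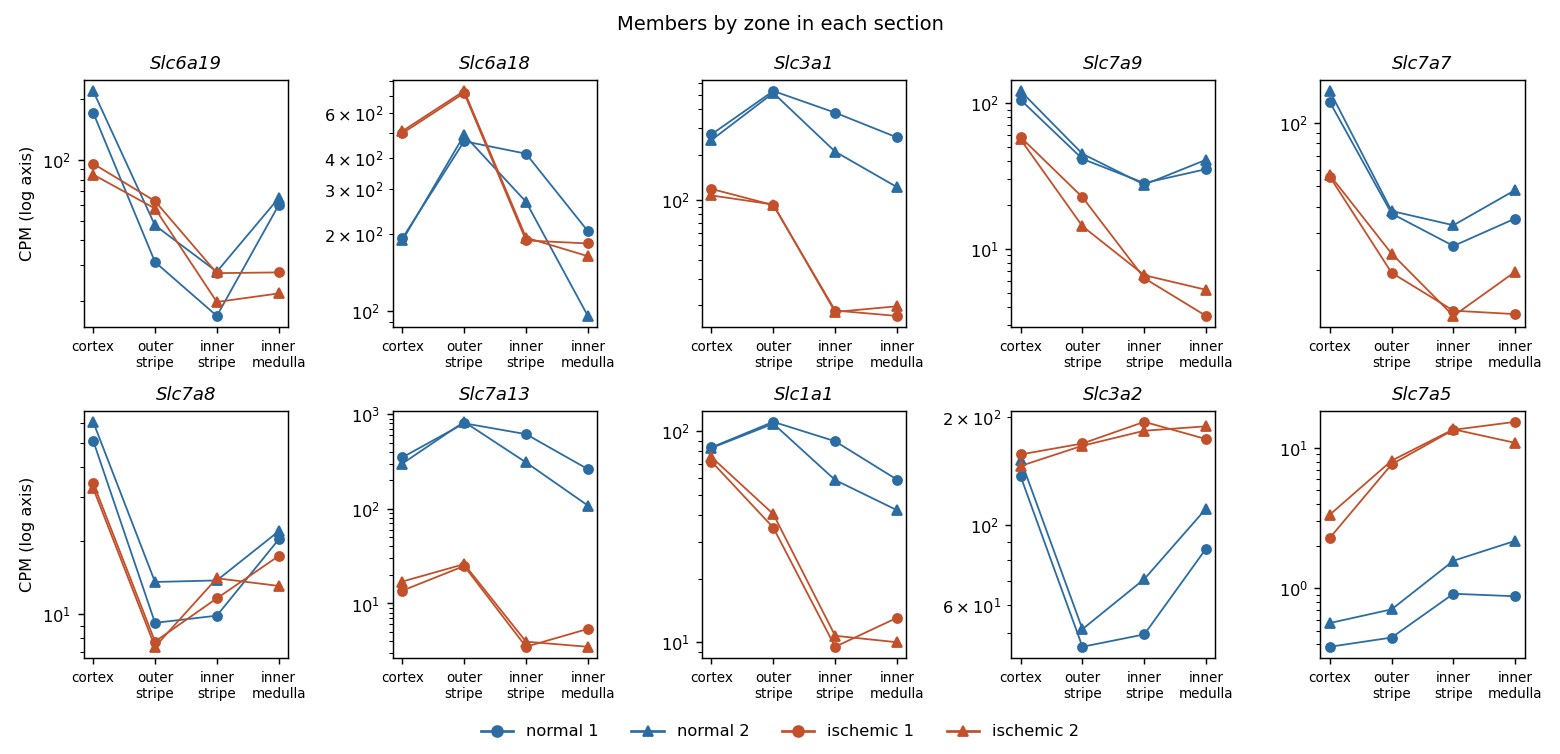
Points are the CPM of each gene (log axis) in 4 zones of each section, joined by lines per section, with blue for normal and red for ischemic sections. In the outer stripe, Slc3a2 lay at 45.8 and 51.3 CPM in normal and at 169 and 167 CPM in ischemic sections, while in the cortex the 4 sections lay between 137 and 158 CPM.

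In the cortex, 7 of the 10 genes fell with ischemia and 2 rose, against 24.4% and 26.2% of all 13586 genes tested. Slc6a18 rose from 192 and 189 CPM to 499 and 509 CPM, a log2 fold change of 1.20 (SE 0.11, edgeR adjusted p = 9.51e-07), and passed the threshold in all 16 fits tried, between 1.07 and 1.40. Its neighbour Slc6a19 fell in the same zone from 172 and 220.0 CPM to 95.9 and 84.7 CPM, by 1.31 on the log2 scale (SE 0.11, edgeR adjusted p = 4.09e-07). Slc6a18 stood at 1.12 and 0.859 counts per count of Slc6a19 in the normal cortex and at 5.21 and 6.01 in the ischemic cortex. Slc7a5, the other gene that rose, went from 0.384 and 0.566 CPM to 2.29 and 3.35 CPM (2.38, SE 0.40, edgeR adjusted p = 0.000247).

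The falls in the cortex ran from Slc7a13, which dropped from 350 and 301 CPM to 13.7 and 17.1 CPM (-4.62, SE 0.16, edgeR adjusted p = 1.26e-10), to Slc1a1, which went from 83.6 and 83.1 CPM to 71.7 and 75.2 CPM (-0.39, SE 0.10, edgeR adjusted p = 0.00532). The call for Slc1a1 was lost with library size alone (-0.18, edgeR adjusted p = 0.102) and in 1 model over all zones (-0.40, edgeR adjusted p = 0.174). It was also lost without ischemic section 1 (-0.34) and without ischemic section 2 (-0.41). Slc3a1, Slc7a9, Slc7a7 and Slc7a8 fell in the cortex by 1.42, 1.17, 1.45 and 0.93 on the log2 scale. Slc3a2 had 137 and 152 CPM in the normal and 158 and 146 CPM in the ischemic cortex, where the conditions overlapped (-0.12, SE 0.10, edgeR adjusted p = 0.301).

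In the outer stripe, 6 genes fell and 3 rose, against 32.9% and 34.6% of all 13280 genes tested. Slc3a2 rose from 45.8 and 51.3 CPM to 169 and 167 CPM, a log2 fold change of 1.42 (SE 0.10, edgeR adjusted p = 1.15e-10), and Slc7a5 from 0.446 and 0.709 CPM to 7.65 and 8.14 CPM (3.43, SE 0.32, edgeR adjusted p = 1.29e-08). Both passed the threshold in all 16 fits tried for this zone. The third, Slc6a19, went from 31.2 and 47.4 CPM to 62.5 and 57.5 CPM with a log2 fold change of 0.27 (SE 0.12, edgeR adjusted p = 0.0457). That call held in 8 of 16 fits, and with the cortex zone defined by glomerular and distal tubule genes the value was -0.06 (edgeR adjusted p = 0.618). Without normal section 1 it was 0.08 (edgeR adjusted p = 0.526), and it was also lost without ischemic section 1 (0.22, edgeR adjusted p = 0.244) or ischemic section 2 (0.34, edgeR adjusted p = 0.0589). Slc6a18 had 464 and 491 CPM in the normal and 719 and 732 CPM in the ischemic outer stripe, and its log2 fold change of 0.23 (SE 0.12) missed the threshold (edgeR adjusted p = 0.0881). It passed in 3 of 16 fits, at 0.60 with library size alone (edgeR adjusted p = 9.45e-07), at 0.30 without normal section 1 (edgeR adjusted p = 0.000976) and at 0.29 with the other cortex zone (edgeR adjusted p = 0.0312).

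The falls in the outer stripe were led by Slc7a13, from 801 and 830 CPM to 24.9 and 26.0 CPM (-5.38, SE 0.14, edgeR adjusted p = 1.69e-16), and Slc3a1, from 529 and 514 CPM to 92.2 and 93.1 CPM (-2.87, SE 0.12, edgeR adjusted p = 8.84e-14). Slc1a1 went from 110 and 108 CPM to 34.9 and 40.4 CPM (-1.92, SE 0.11, edgeR adjusted p = 9.34e-12). Slc7a9, Slc7a7 and Slc7a8 fell there by 1.58, 1.19 and 0.93 on the log2 scale. After each spot was thinned to 2000 UMIs, Slc7a13 was detected in 77.1% and 78.0% of normal outer stripe spots and in 4.60% and 4.42% of ischemic ones. Unthinned, these shares were 99.5% and 95.2% against 29.7% and 24.1%, at median depths of 18389 and 10954 UMIs against 15735 and 11775 UMIs per spot. In the spots assigned to the inner medulla, a zone that normally lacks proximal tubules, the thinned shares of Slc7a13 were 28.7% and 13.8% in the normal sections, at median depths of 7364 and 5265 UMIs, and 0.356% and 0.699% in the ischemic sections, at 8638 and 7262 UMIs. The share of outer stripe spots with a UMI of Slc3a2 in the thinned counts was 9.28% and 10.8% for the normal sections against 30.3% and 29.7% for the ischemic ones. Thinning left out 48 and 150 spots of the normal and 58 and 105 spots of the ischemic sections, over all zones.

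**Figure D3:**
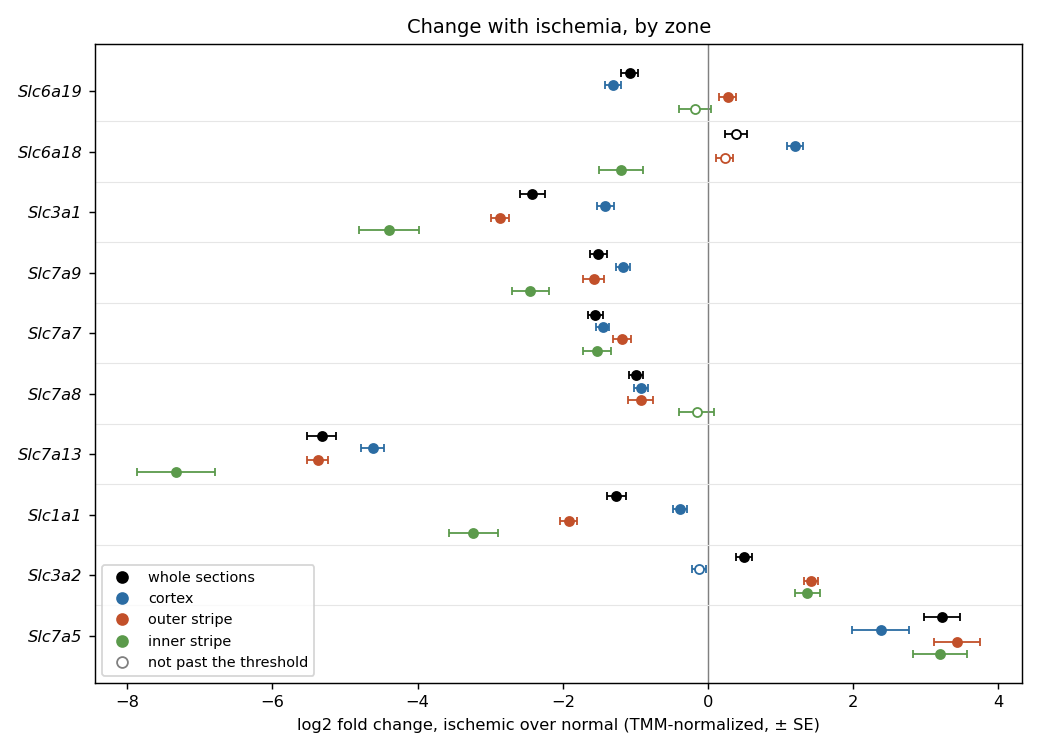
Points are log2 fold changes, ischemic over normal, with error bars for the standard error, in whole sections, cortex, outer stripe and inner stripe, and open points did not pass the threshold. Slc3a2 was at -0.12 in the cortex and at 1.42 in the outer stripe, and Slc6a18 at 1.20 in the cortex and at 0.23 in the outer stripe.

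Within the inner stripe, 6 genes fell and 2 rose, against 22.1% and 19.4% of all 12534 genes tested. The proximal tubule is not a normal part of this zone, and the outer stripe markers fell there from 1889 and 940 CPM to 232 and 226 CPM in sum. The part of these markers in the results for the zone was not tested. Slc7a13 went from 615 and 309 CPM to 3.49 and 3.95 CPM (-7.33, SE 0.54, edgeR adjusted p = 3.45e-05) and Slc3a1 from 380 and 209 CPM to 18.4 and 18.0 CPM (-4.40, SE 0.41, edgeR adjusted p = 8.2e-05). Slc1a1, Slc7a9 and Slc7a7 fell by 3.24, 2.45 and 1.53 on the log2 scale. Slc6a18 fell here, from 415 and 268 CPM to 189 and 194 CPM (-1.20, SE 0.31, edgeR adjusted p = 0.0135), and the call was lost when zones were drawn without neighbours (-0.48, edgeR adjusted p = 0.125) or without ischemic section 1 (-1.14, edgeR adjusted p = 0.0798) or ischemic section 2 (-1.23, edgeR adjusted p = 0.0576). Without normal section 1 its value was -0.57. Slc3a2 rose from 49.6 and 70.8 CPM to 194 and 183 CPM (1.37, SE 0.17, edgeR adjusted p = 0.000382) and Slc7a5 from 0.916 and 1.57 CPM to 13.5 and 13.6 CPM (3.19, SE 0.37, edgeR adjusted p = 0.000253). Slc6a19 and Slc7a8 overlapped between conditions in this zone, with log2 fold changes of -0.18 and -0.16 and edgeR adjusted p values of 0.55 and 0.633. Both were called lower when zones were drawn without neighbours (-0.58, edgeR adjusted p = 0.0202, and -0.52, edgeR adjusted p = 0.0463), and Slc6a19 also with the cortex zone defined by glomerular and distal tubule genes (-0.82, edgeR adjusted p = 0.00966).

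The zones assigned as inner medulla and pelvis held few spots, and values of the former are given without a test and with the reservation that its markers were low in ischemic sections, where the inner stripe list summed to 5478 and 5282 CPM. Slc7a5 was at 0.879 and 2.18 CPM there in normal and at 15.4 and 10.9 CPM in ischemic sections. Slc3a2 was at 86.1 and 111 CPM and at 174 and 189 CPM.

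**Figure D4:**
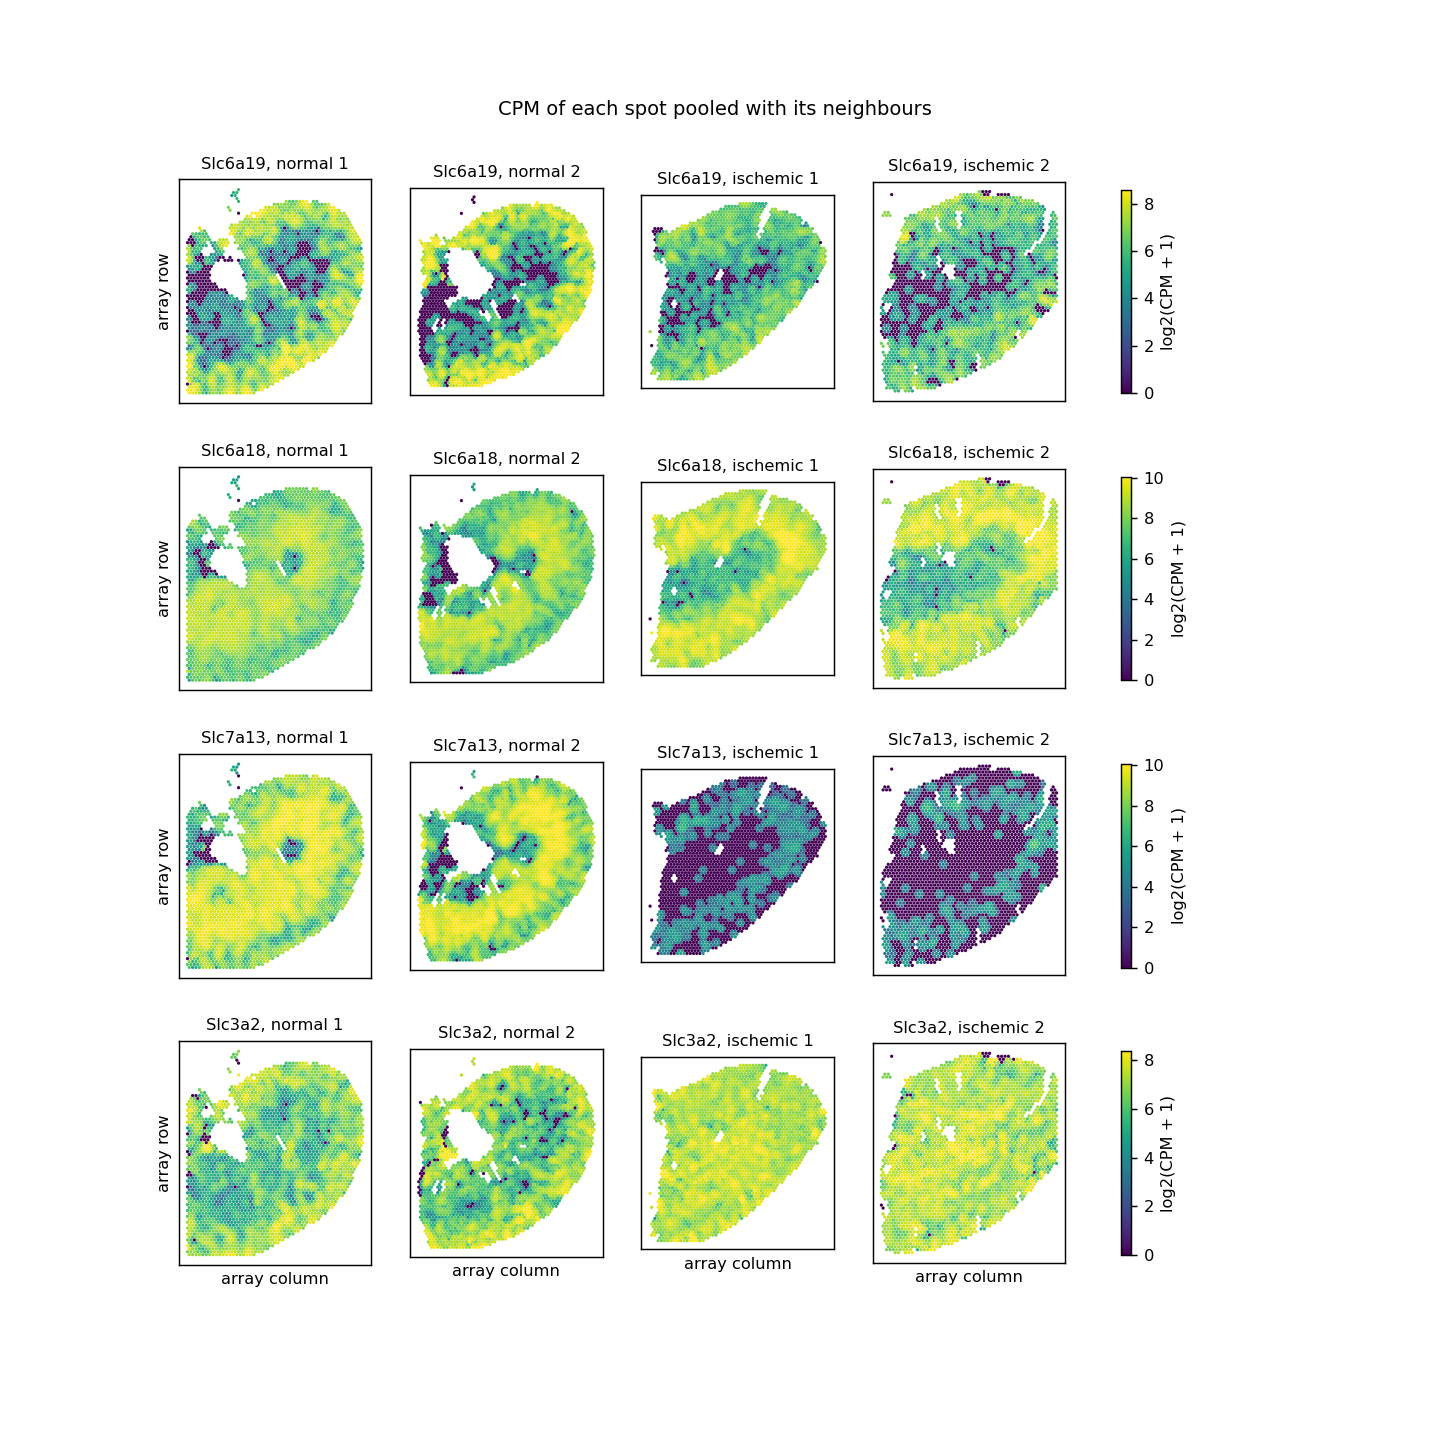
Each dot is a tissue spot at its place on the array, coloured by log2(CPM + 1) of the spot pooled with its up to 6 neighbours, with 1 row for each of 4 genes, 1 column for each section and 1 colour scale per row, at whose top the highest spots share a colour. Slc6a19 was highest toward the rim and Slc7a13 in the band beneath it in the normal sections. In the ischemic sections Slc7a13 lay between 3.49 and 26.0 CPM in the sums of cortex, outer stripe and inner stripe, and Slc3a2 between 146 and 194 CPM.

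Whether the zone difference itself changed with ischemia was tested as the change of the difference of outer stripe against cortex. Of the 10 genes, 2 changed toward the outer stripe and 3 toward the cortex, against 8.40% and 14.0% of all 14359 genes tested. Slc3a2 changed by 1.52 (SE 0.12, edgeR adjusted p = 1.7e-06), from an outer stripe deficit of -1.43 in normal sections to a difference of 0.10 (edgeR adjusted p = 0.391) in ischemic sections. Slc6a19 changed by 1.56 (SE 0.14, edgeR adjusted p = 4.69e-06), from -2.19 to -0.63. Slc1a1 changed by -1.55 (SE 0.20, edgeR adjusted p = 6.98e-05), from 0.54 to -1.01, so that its order between the zones was opposite in the 2 conditions. Slc3a1 changed by -1.48 (SE 0.29, edgeR adjusted p = 0.00177) and Slc6a18 by -0.998 (SE 0.28, edgeR adjusted p = 0.0179).

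The changes of Slc3a2, Slc6a19 and Slc1a1 passed the threshold in all 15 fits tried. Those of Slc3a1 and Slc6a18 were lost without ischemic section 1 (-1.26 and -0.87) and without ischemic section 2 (-1.53 and -0.97). They were also lost with no section block (edgeR adjusted p = 0.0661 and 0.176). Slc6a18 was lost under DESeq2 as well (adjusted p = 0.0604). For Slc7a13, Slc7a9, Slc7a7, Slc7a8 and Slc7a5 the change missed the threshold, with edgeR adjusted p values of 0.137, 0.10, 0.25, 0.983 and 0.194.

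Within ischemic sections, 1 gene was higher in the outer stripe than in the cortex and 5 were lower, against 17.6% and 20.0% of all 14359 genes tested. Slc7a5 was the higher one (1.46, SE 0.24, edgeR adjusted p = 0.000176). Slc6a19, Slc7a9, Slc7a7, Slc7a8 and Slc1a1 were lower, at log2 differences of -0.63, -1.67, -1.43, -2.19 and -1.01. Without ischemic section 1, 3 of these 6 calls were left, those of Slc7a9, Slc7a7 and Slc7a8. Without ischemic section 2, Slc6a19 missed the threshold (edgeR adjusted p = 0.054). Slc6a18 (0.48, edgeR adjusted p = 0.0674) and Slc7a13 (0.70, edgeR adjusted p = 0.071) missed it as well, but each was called higher in the outer stripe in 8 of 15 fits, with values from 0.46 to 0.65 and from 0.65 to 1.09. Without normal section 1 or normal section 2, more of the 10 genes were called, but so were more of all genes tested. That rise is therefore not particular to the 10 genes.

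The counts of the 2 heavy chains were also compared within each section. Per count of Slc3a1 there were 0.243 and 0.317 counts of Slc3a2 in the normal and 1.98 and 2.15 in the ischemic whole sections. The ratio went from 0.0866 and 0.0999 to 1.83 and 1.79 in the outer stripe, and from 0.503 and 0.610 to 1.33 and 1.37 in the cortex. It went from 0.131 and 0.338 to 10.6 and 10.2 for inner stripe spots. The conditions did not overlap in any zone, but an exact permutation test of 2 against 2 sections cannot go below p = 0.333. Capture may differ between genes, so the ratios compare sections and zones and do not give the ratio of transcripts. Per count of Slc3a1, the light chain Slc7a13 went from 1.43 and 1.44 to 0.177 and 0.209 in whole sections, while Slc7a9 went from 0.183 and 0.230 to 0.393 and 0.366.

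**Figure D5:**
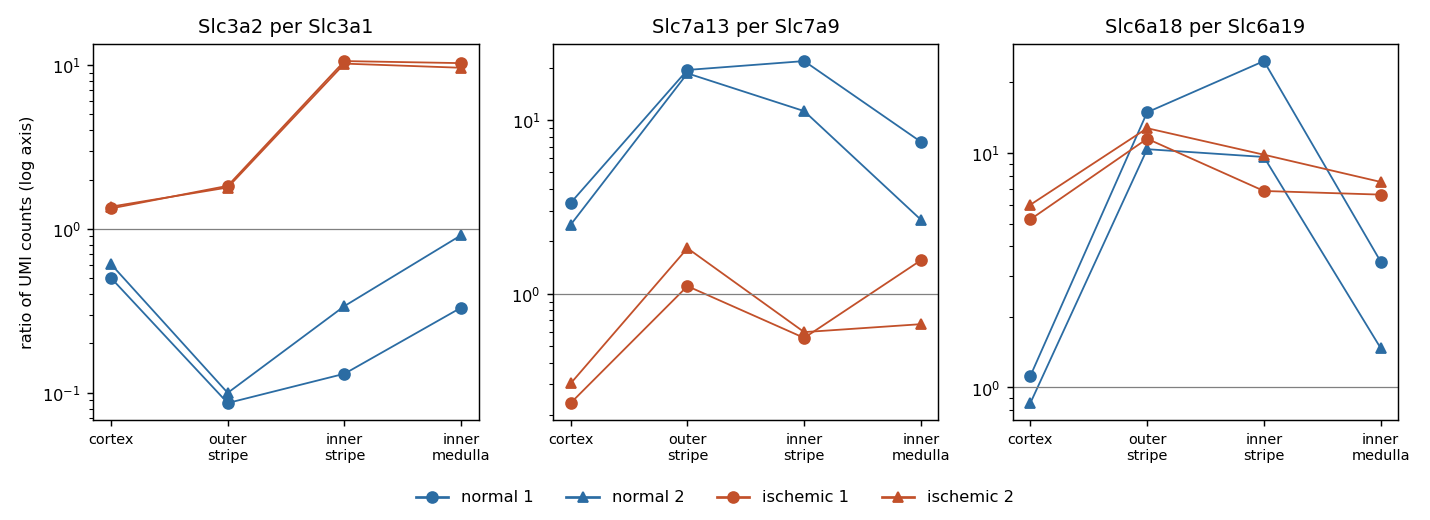
Points are ratios of UMI counts (log axis) of Slc3a2 to Slc3a1, Slc7a13 to Slc7a9 and Slc6a18 to Slc6a19 in 4 zones of each section, with a grey line at 1. The ratio of Slc3a2 to Slc3a1 was below 1 in each zone of the normal sections and above 1 in each zone of the ischemic sections.

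Beside these changes, the proximal tubule and injury lists moved as well, where 29.7% of all genes tested fell and 31.0% rose in whole sections. All 15 of 15 other proximal tubule genes fell in whole sections, with a median log2 fold change of -2.22, led by Miox (-3.84), the phosphate carrier Slc34a1 (-3.62), the creatine synthesis enzyme Gatm (-3.49) and the organic anion carrier Slc22a8 (-2.87). Slc6a18 was at 0.38, while this list ran from -3.84 to -0.53. The injured tubule markers rose in 5 of 5 genes, from sums of 15.1 and 23.9 CPM to 4720 and 5317 CPM.

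Blood and immune markers moved with the conditions too, beside 31.0% of all genes tested that rose and 29.7% that fell in whole sections. Neutrophil markers rose in 4 of 4 genes, from sums of 1.39 and 2.06 CPM to 176 CPM in each ischemic whole section. In the outer stripe these sums went from 1.28 and 1.11 CPM to 333 and 343 CPM, and Retnlg was at 0 in the normal outer stripe. In the cortex they went from 1.25 and 1.54 CPM to 64.7 and 81.7 CPM. Macrophage markers rose in 1 and fell in 3 of 5 genes, at sums of 128 and 174 CPM in normal and 128 and 130 CPM in ischemic sections. Fibroblast markers rose in 3 and fell in 1 of 4 genes, at 134 and 215 CPM against 289 and 299 CPM, and red blood cell markers fell in 4 of 4 genes. T cell markers fell in 4 of 4 genes and endothelial markers rose in 2 and fell in 1 of 4. Slc3a2 and Slc7a5 are also used by immune and stromal cells, and the part of these cells in the rises was not tested.

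Other amino acid transporters and their partners, a list of 44 genes, moved in both directions. Of the 39 tested in whole sections, 9 rose and 19 fell, with a median log2 fold change of -0.33. The shares over all genes tested were 31.0% that rose and 29.7% that fell. The largest falls were Slc36a2 (a proton-coupled glycine and proline carrier), Slc7a12, Slc6a20b (a proline carrier), Slc6a13 (a GABA and taurine carrier) and Cltrn. Slc36a2 had 89 and 32 counts in the normal and 1 and 0 counts in the ischemic sections, a CPM ratio of 95.6 (95% exact interval 16.8 to 3805, counting error only). Slc7a12, Slc6a20b and Slc6a13 fell by 3.61, 3.12 and 2.92 on the log2 scale (edgeR adjusted p = 0.000121, 4.27e-07 and 9.29e-07).

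Cltrn encodes collectrin, the partner that carries Slc6a19 and Slc6a18 to the brush border. It had 1521 and 1447 CPM in the normal and 373 and 394 CPM in the ischemic sections (-2.24, SE 0.18, edgeR adjusted p = 7.56e-06). In the cortex, where Slc6a18 rose, Cltrn went from 2055 and 2040 CPM to 646 and 723 CPM (-1.78, SE 0.13, edgeR adjusted p = 1.26e-07).

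The largest rises of the list were Slc7a11 (the cystine and glutamate exchanger), Slc7a1 (a cationic amino acid carrier), Slc38a2 and Slc38a1 (sodium-coupled neutral carriers) and Slc7a6. Slc7a11, like Slc7a5 a light chain of Slc3a2, had 5 and 4 counts in the normal and 151 and 133 counts in the ischemic sections, or 0.112 and 0.145 against 4.86 and 5.12 CPM (4.99, SE 0.31, edgeR adjusted p = 1.92e-06). Slc7a6, a further light chain of Slc3a2, had 3.32 and 5.75 against 11.3 and 11.6 CPM (1.11, SE 0.18, edgeR adjusted p = 0.000624). Slc38a2 had 29.8 and 48.3 against 132 and 135 CPM (1.53, SE 0.14, edgeR adjusted p = 2.22e-05). Slc7a1 and Slc38a1 rose by 2.00 and 1.40 on the log2 scale (edgeR adjusted p = 9.49e-06 and 0.000395).

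ATF4 is the transcription factor that switches on amino acid uptake and synthesis genes when amino acids run short or proteins misfold, and Slc3a2, Slc7a5 and Slc7a11 are known among its targets. Of 14 other ATF4 targets and pathway genes, 12 rose in whole sections and 1 fell, with a median log2 fold change of 1.66. Of all genes tested, 31.0% rose and 29.7% fell. The largest rises were Chac1 (3.09, SE 0.23, edgeR adjusted p = 6.2e-06), Trib3 (2.96), the asparagine synthetase Asns (2.40) and Cebpb (1.96). The gene that fell was Shmt2 (-1.18), a mitochondrial serine hydroxymethyltransferase. In the outer stripe, 12 rose with a median of 1.97, against 34.6% of all genes tested. In the cortex, 11 rose with a median of 1.24, against 26.2% of all genes tested. The part of ATF4 in the changes of the 10 genes was not tested.

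Genes with the most similar profile were sought over the 16 sums of 4 sections and 4 zones, among 8801 genes with at least 10 CPM on average, by Pearson's r of log2(CPM + 1). For Slc6a19 they were Bid (0.963), Gldc (0.929) and Slc4a4 (0.928). For Slc7a13 they were Ugt3a1 (0.995), Cyp2j11 (0.993) and Cbs (0.991). For Slc7a5 they were Snd1 (0.992), Tom1l1 (0.987) and Snhg5 (0.986). Slc7a5 had between 1 and 8 counts in each normal sum. For Slc7a5, Slc7a13 and Slc6a19 alike, r takes in the difference between the conditions and is not a likeness of zone profile alone. The 16 sums share sections and are no independent samples, so no p-value is given.

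Correlations across the thinned spots of a section are given as a description, since neighbouring spots share counts, section and depth. Over 2343 to 2568 spots a section, each pooled with its neighbours, Pearson's r of Slc3a1 with Slc7a13 was 0.523 and 0.612 in the normal and 0.170 and 0.118 in the ischemic sections. Before pooling, Slc7a13 was found in 77.1% and 78.0% of normal but only 4.60% and 4.42% of ischemic outer stripe spots. So few counts can hold r near 0 by themselves, and their part in the lower r was not tested. With Slc7a9, its other light chain, Slc3a1 had r of -0.094 and -0.018 in the normal and 0.194 in each of the ischemic sections. Slc6a19 and Slc6a18 had r of -0.338 and -0.286 in the normal and 0.154 and 0.173 in the ischemic sections. Without pooling, r of Slc3a1 with Slc7a13 was 0.212 and 0.253 in the normal and 0.071 and 0.057 in the ischemic sections. For Slc3a1 with Slc7a9 it was -0.008 and -0.001 against 0.019 and 0.089, and for Slc6a19 with Slc6a18 it was -0.104 and -0.091 against 0.016 and 0.060. The ischemic values without pooling were thus near 0, and no change of sign is read from them.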

How the data were processed

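UMI counts per gene and spot were deposited by the authors, who made them with Space Ranger 1.3.0 (per the file headers) on mm10 (per the labels). The deposited counts are raw and not normalized, every matrix column is a spot barcode, and no other column of sample values was left unused. No list or rule was blind: the 10 genes and all gene lists were chosen with earlier results of these data known.

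Tissue spots were assigned to zones from marker lists (member Slc7a13 was taken off the outer stripe list), each spot with up to 6 neighbours. Counts were summed per section and per zone, so that the section was the unit. The sums were tested with edgeR 4.0.16 (quasi-likelihood, TMM, filterByExpr, R 4.3.3) and Benjamini-Hochberg adjustment over all genes at 0.05, with 1 fit of 2 against 2 sections for whole sections and for each zone. Outer stripe and cortex were compared in 1 fit over 16 sums with the section as a block. DESeq2 1.42.0 was an alternative, beside other scalings, no filter, other zone rules and the omission of each section. The edgeR and DESeq2 fits were tested on simulated counts with 200 changed genes and the same spread for all genes. In whole sections edgeR recovered 198 and DESeq2 185 of them. For the change of the zone difference they recovered fewer, 162 and 125, so a missed threshold there says less.

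Genes named were the 10 members, the labels' checks Havcr1 and Lcn2, the 5 largest rises and falls of the transporter list past the threshold without overlap, up to 4 examples of the ATF4 and proximal tubule lists, and the 3 genes most like Slc6a19, Slc7a13 and Slc7a5. Shmt2 and Retnlg were chosen after their values were seen. Replicate counts differed by more than sampling noise (chi-square per degree of freedom 41.9 in normal and 7.32 in ischemic sections). Pairs of sections shared 1833 to 2137 barcodes, which mark array positions. The section numbers were not used as pairs. For shares of spots with a UMI, each spot was thinned to 2000 UMIs. Intervals cover counting error only. Gene positions were matched by ID in GENCODE vM21 (GRCm38) for 32158 of 32285 genes, and promoters came from RefSeq on GRCm38.p6. Python 3.11.15, numpy 2.4.6, pandas 2.3.3, scipy 1.17.1 and matplotlib 3.10.9 were used.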

Additional observations from a re-analysis of the deposited data

Results flagged for a closer look

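For 5 of the 10 genes the effect of ischemia differed between outer stripe and cortex by a test of the difference itself (edgeR, section as block, adjusted over 14359 genes). Of the 10 genes, 2 changed toward the outer stripe and 3 toward the cortex, against 8.40% and 14.0% of all genes tested. The difference of the log2 fold changes was 1.56 for Slc6a19 (edgeR adjusted p = 4.69e-06) and 1.52 for Slc3a2 (edgeR adjusted p = 1.7e-06), toward the outer stripe. It was -1.55 for Slc1a1 (edgeR adjusted p = 6.98e-05), -1.48 for Slc3a1 (edgeR adjusted p = 0.00177) and -0.998 for Slc6a18 (edgeR adjusted p = 0.0179), toward the cortex. The first 3 of these calls, for Slc6a19, Slc3a2 and Slc1a1, held in all 15 fits tried. Those of Slc3a1 and Slc6a18 were lost when ischemic section 1 or ischemic section 2 was left out, with values of -1.26 and -1.53 for Slc3a1 and of -0.87 and -0.97 for Slc6a18. Both were also lost with no section block (-1.47 and -0.99, edgeR adjusted p = 0.0661 and 0.176). Slc6a18 was lost under DESeq2 as well (-0.94, adjusted p = 0.0604).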

How the results depend on the processing

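Of 970 values computed for the 10 genes, 889 kept their direction and their side of the threshold, 31 lost their call, 33 gained one and 17 changed sign. The number of genes called for the change of the zone difference was 3 in place of 5 with no section block, and ran from 3 to 7 when 1 section was left out. Leaving out 1 section gave 1 to 3 genes called higher in whole sections (2 with all sections) and 3 to 9 genes called between the zones of ischemic sections (6 with all sections). For the change, 3 were called without ischemic section 1 and without ischemic section 2. In whole sections, 1 was called higher without ischemic section 1 or without ischemic section 2 and 3 without normal section 1. Between ischemic zones, fewer were called without ischemic section 1. More were called without normal section 1 or without normal section 2, where more of all genes tested were called too.

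None of the values that changed sign were past the threshold there. With library size alone, Slc3a2 in the cortex was at 0.073, and Slc6a19 and Slc7a8 in the inner stripe at 0.11 and 0.15, though both were called lower there with zones drawn without neighbours (-0.58 and -0.52). With the cortex zone drawn from glomerular and distal genes, Slc6a19 in the outer stripe was at -0.060 and Slc7a5 between normal zones at -0.010. Leaving out 1 section, Slc6a19 in the inner stripe ran from -0.40 to 0.031, Slc7a8 there from -0.31 to 0.007, and the change of Slc7a8 from -0.15 to 0.112. That change, -0.02 as reported, was 0.038 under DESeq2, 0.028 without a filter, 0.043 with DESeq2 size factors, 0.18 with library size alone, 0.326 with zones drawn without neighbours, 0.015 without boundary spots and 0.002 with the other cortex zone. The cause was not tested.

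Over all genes, leaving out ischemic section 1 or 2 cut the calls from 3219 to 609 or 781 for the change, from 5395 to 1677 or 1831 between ischemic zones, from 3307 to 1997 or 2036 between normal zones, from 6866 to 4220 or 4084 in the cortex and from 5206 to 3031 or 3023 in the inner stripe. No section block gave 1921 for the change. Scaling by library size alone moved the share of higher calls from 51.8% to 67.5% in the cortex, from 51.3% to 69.8% in the outer stripe, from 46.8% to 62.3% in the inner stripe, from 54.7% to 33.1% between normal zones and from 37.5% to 61.5% for the change. The labels do not say that sections with the same replicate number are paired. The difference between numbers 1 and 2 in normal sections had r = 0.208 with that in ischemic sections, over 15305 genes. From 2 pairs, this value cannot show whether sections of the same number share anything. With the replicate block, 10089 in place of 9279 genes were called in whole sections. Slc6a18 then passed in whole sections (0.39, edgeR adjusted p = 0.0143), and the replicate block changed no other call for the 10 genes.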
